A study of Petromyzon marinus with 6 samples.

Results

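The transcripts described here are those abundant in TH- trunk cells of the larval sea lamprey, Petromyzon marinus, and at least 4-fold scarcer in TH+ cells. They were selected on measured levels. A transcript model belonged to the set if its mean in the TH- libraries was at least 100 CPM (estimated counts scaled to a library total of 1000000), its TH+ to TH- ratio of mean CPM was below 0.25, and it was shorter than 10000 bases. Of 19781 models, 96 met the rule, or 0.485%. Since these levels chose the set, the differences between TH+ and TH- given below describe its members and are not tested.

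TH stands for tyrosine hydroxylase, which catalyses the limiting step in making catecholamines, and antibodies against it mark noradrenergic neurons such as those of the sympathetic chain. Lampreys are jawless vertebrates whose larvae, called ammocetes, have a trunk built largely of segmental muscle around a notochord and spinal cord, with skin, blood vessels, kidney and peripheral nerves. Cells that an antibody against TH leaves unstained can therefore be of many types.

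The study asked what identifies lamprey sympathetic neurons at the level of RNA. Strips of trunk cells on both sides, taken to be the sympathetic chains, were dissociated, fixed in paraformaldehyde and sorted with the antibody, and their RNA was sequenced by the fixed-cell method FRISCR. The TH+ group, labelled sympathetic, had 3 libraries, and the TH- group, labelled control, had 3 libraries from the same kind of tissue. The TH- group is defined by the lack of antibody signal and not by a cell type of its own. No genotype, treatment or animal is attached to single libraries, so the spread between libraries may be technical.

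The libraries held 6573171 to 7525119 estimated counts in TH+ and 7127490 to 9221265 in TH-. Members had between 82 and 30554 counts in a TH+ library and between 718 and 232923 in a TH- library, so none was close to the limit of detection. The files list models under PMZ identifiers and do not pair them with gene names. None of the 96 identifiers was found among the 45433 genes of the lamprey gene table used here. No gene name, function, sequence or position is therefore given for any member, and the markers of TH+ and TH- cells were not analysed here. Members are called by length and by their rank in mean TH- CPM, and 2 of them by identifier.

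The 96 models held a small part of the reads of TH+ cells and a large part, although not the majority, of those of TH- cells. They took 5.86%, 5.90% and 6.30% of the counts in the TH+ libraries, against 34.0%, 35.4% and 34.4% in the TH- libraries. The means were 6.02% ± 0.245 in TH+ and 34.6% ± 0.698 in TH- (SD over 3 libraries each). Every TH+ library was far below every TH- library. The rule fixed the direction of the group means and set no limit on single libraries. Those means were taken over these same libraries, so this separation follows largely from the choice. In bulk RNA, fewer cells that make a transcript and less of it per cell cannot be told apart. Shares are also relative and do not give the amount of a transcript in a cell. Whether other RNA was more plentiful in TH+ was not tested.

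The 769 other models at 100 CPM or more in TH- behaved differently in sum. They held 46.0% ± 0.182 of the counts in TH+ and 51.8% ± 0.701 in TH- (SD over 3 libraries each), a ratio of 0.889. Of these 769 models, 378 had a ratio below 1 and 391 a ratio above 1, so their sums are a net of both directions. The set of 96 thus accounted for most of the net gap between the groups among TH- abundant models. This follows in part from how the set was chosen. Among the others the ratio differed by level. At 1000 CPM or more in TH-, 19 of the 68 others had a ratio above 1, and their median ratio was 0.466. The 57 members at that level had a median of 0.173. Most of the others at that level were thus also lower in TH+. The others' median was 1.06 at 300 to 1000 CPM and 1.03 at 100 to 300 CPM. Models under 100 CPM in TH- made up the balance, with 48.0% ± 0.387 in TH+ and 13.6% ± 1.26 in TH-.

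**Figure D1:**
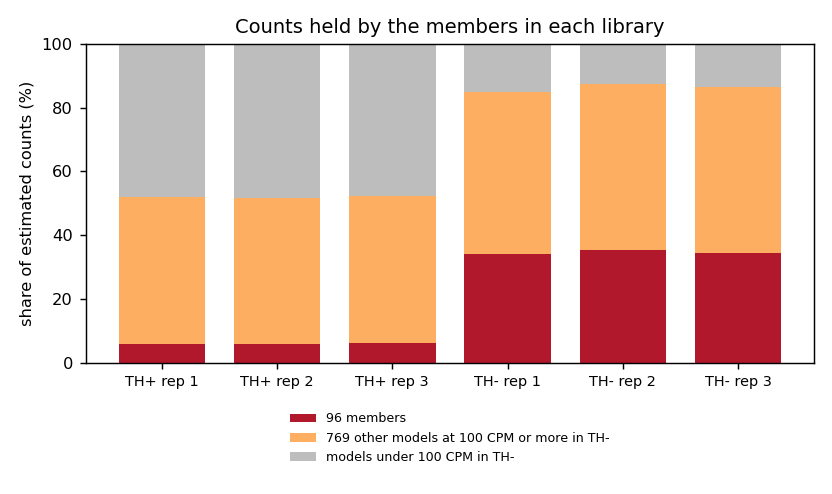
Share of estimated counts (y axis, %) in each of the 6 libraries (x axis), split into the 96 members, the 769 other models at 100 CPM or more in TH-, and all models under 100 CPM in TH-. The members take 5.86% to 6.30% in TH+ libraries and 34.0% to 35.4% in TH- libraries.

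Members were spread over a wide range of ranks in TH+ cells and lay among the upper ranks in TH- cells. The limits on TH- CPM and on the ratio largely set this contrast. Among the most abundant TH+ models by CPM, members made up 0 of the first 10, 1 of the first 20 and 18 of the first 100. Among TH- models they made up 5 of the first 10, 13 of the first 20 and 53 of the first 100. Per length, by deposited TPM (transcripts scaled by effective length to a library sum of 1000000), they made up 1 of the first 10, 3 of the first 20 and 15 of the first 100 in TH+. In TH- they made up 3, 9 and 44 of these. By CPM the median member ranked 622 in TH+ and 86.5 in TH-. The lowest rank of a member was 6511 in TH+ and 815 in TH-.

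The 10 most abundant members alone took 2.64% ± 0.130 of all counts in TH+, against 15.9% ± 0.491 in TH- (SD over 3 libraries each). The leading member, PMZ_0016231-RA, is 1337 bases long. It had 2738, 2614 and 2875 CPM in the TH+ libraries, against 20547, 25259 and 23207 CPM in the TH- libraries. Its mean was 2742 ± 131 CPM in TH+ and 23004 ± 2363 CPM in TH-, a ratio of 0.119. It was number 37 of all models by CPM in TH+ and number 3 in TH-.

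The member of rank 2, of 680 bases, had 3108, 3301 and 3382 CPM in TH+ and 21436, 19204 and 19420 CPM in TH-. Rank 3, of 1006 bases, had 4060, 4222 and 4444 CPM in TH+ and 19437, 20447 and 19690 CPM in TH-. This was the highest TH+ level of any member, with a mean of 4242 ± 192 CPM. Rank 4, of 1451 bases, averaged 3274 ± 181 CPM in TH+ and 18941 ± 266 CPM in TH-. Rank 5, of 449 bases, averaged 3822 ± 204 CPM in TH+ and 18650 ± 603 CPM in TH- (SD over 3 libraries for each of these means). In all 5 the libraries of a group lay close together and the groups were separated by a gap of more than 4-fold between their nearest libraries.

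Ranks 6 to 10 were 1400, 1493, 1651, 2332 and 878 bases long. Their means ran from 1373 to 2543 CPM in TH+ and from 10460 to 14164 CPM in TH-. Their ratios lay between 0.122 and 0.180. These 10 models all had fractional counts, which is taken up below with the sharing of reads.

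**Figure D2:**
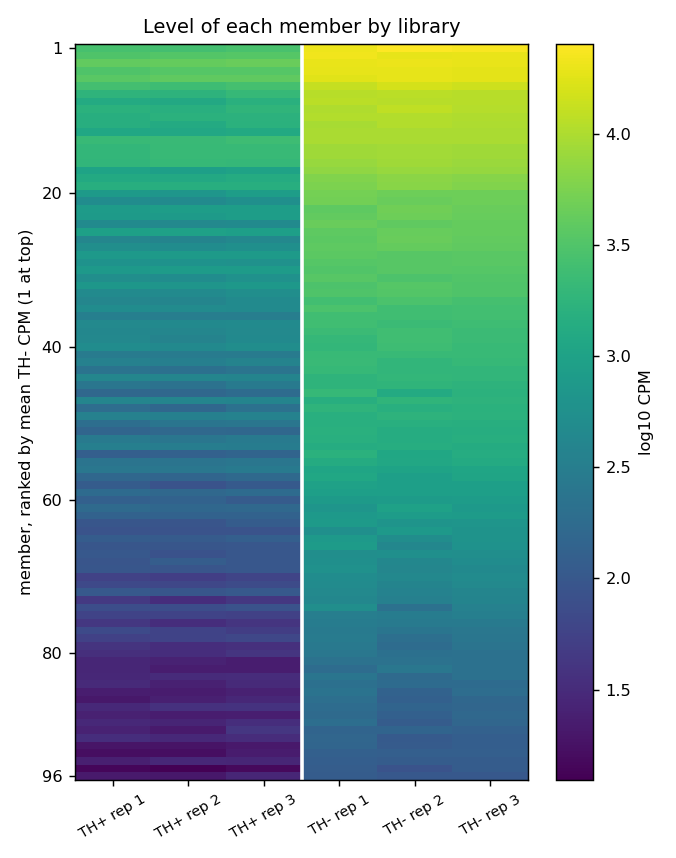
Level of each of the 96 members (rows, ranked by mean TH- CPM with rank 1 at the top) in the 6 libraries (columns), as log10 CPM in colour. The 3 TH+ libraries on the left are darker than the 3 TH- libraries on the right in every row. The rule required this of the group means, which were taken over these same libraries, so it follows largely from the choice. Levels in TH+ mostly fall along with those in TH-, since the ratios run only from 0.0977 to 0.248.

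The ratio of TH+ to TH- ran from 0.0977 to 0.248 over the set, with a median of 0.169 and quartiles of 0.142 and 0.211. There were 30 members below 0.15, 37 from 0.15 to 0.2, and 29 above that. Within the set, where the rule kept the ratio below 0.25, it had no visible relation to abundance or to length. Spearman's rho across the 96 members was 0.025 with mean TH- CPM and -0.0087 with length. Over the 769 other TH- abundant models it was -0.186 with mean TH- CPM and 0.013 with length. The limit on the ratio narrows its range among members, so their values do not speak for abundant models in general. All models share the same 6 libraries, so this is a description.

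The member with the lowest ratio was PMZ_0050249-RA, of 6399 bases. It had 126, 132 and 146 CPM in the TH+ libraries, against 1617, 1150 and 1377 CPM in the TH- libraries. It had whole counts throughout. Next came a 1724-base model of rank 46, with 161, 160 and 177 CPM in TH+ and 2028, 1298 and 1653 CPM in TH-, a ratio of 0.0999. In this pair of models the spread within TH- was wide, with replicate 1 highest and replicate 2 lowest, yet the groups stayed far apart.

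The third, of rank 26 and 2106 bases, had 408, 386 and 433 CPM in TH+ and 3702, 4371 and 4093 CPM in TH-, a ratio of 0.101. The fourth, of rank 73 and only 647 bases, averaged 40.1 ± 5.47 CPM in TH+ and 385 ± 40.4 CPM in TH- (SD over 3 libraries each), a ratio of 0.104. The fifth, of rank 51 and 2273 bases, averaged 157 ± 5.38 CPM in TH+ and 1467 ± 78.8 CPM in TH-, a ratio of 0.107. The models with the lowest ratios thus came from different ranks and lengths, and each still had counts in all TH+ libraries.

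At the edges of the rule the levels were continuous. The members nearest to the ratio limit, of 3721 and 4531 bases, had ratios of 0.2479 and 0.2485. The closest models left out, of 1980 and 2573 bases, had ratios of 0.252 and 0.253. A 447-base model stayed outside at 0.255, with 5041 CPM in TH+ and 19751 CPM in TH-. The most abundant TH- model of all, of 976 bases, stayed outside at 0.257, with 16375 CPM in TH+ and 63731 CPM in TH-.

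The least abundant members were a 2367-base model with 23.3 CPM in TH+ and 106.6 CPM in TH-, and a 2217-base model with 13.98 CPM in TH+ and 106.6 CPM in TH-. The next models below the limit of 100 CPM had 94.4 and 93.2 CPM in TH-, with ratios of 0.175 and 0.184. The longest members had 6904 and 6399 bases, and the length limit removed 0 models.

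**Figure D3:**
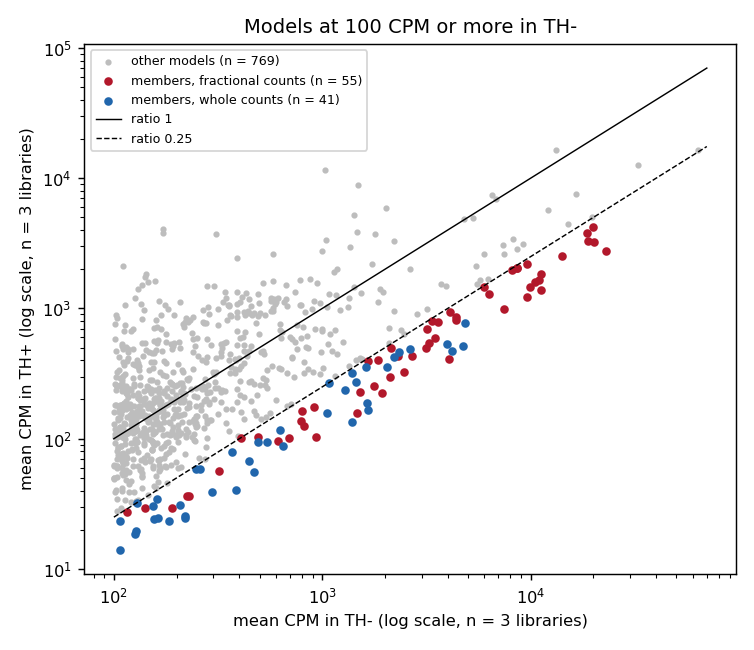
Mean CPM in TH- (x axis, log scale) against mean CPM in TH+ (y axis, log scale) for 865 models whose TH- mean reached 100 CPM, with 3 libraries per mean. The 96 members lie below the dashed line at a ratio of 0.25, with 55 members of fractional counts in red and 41 of whole counts in blue, and the whole-count members reach no higher than 4847 CPM in TH-.

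All 96 members passed the filter on low counts, and in the fit over 11502 models all 96 were called lower in TH+ (edgeR's quasi-likelihood test, Benjamini-Hochberg adjusted p of at most 0.05, TMM scaling). In that fit 32.9% of all models tested were called lower. With library totals in place of TMM, 8.94% of all models were called lower and again all 96 members. The libraries did not overlap for any of the 96 members, with TH+ lower, as for 9.24% of the models tested. The rule used the same contrast, so nothing is read from these counts.

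The size of the difference depended on the scaling. TMM takes most models as unchanged. It gave members a median log2 fold change of -4.33 in TH+ over TH-, with a range from -5.11 to -3.76. In the TMM fit 3789 of the 11502 models were called lower and 4927 higher, so its own calls do not bear out that premise. Library totals gave a median of -2.56, with a range from -3.35 to -2.003. Over all models tested, the median was 0.38 under TMM and 2.14 on library totals, a shift of 1.76.

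Members chosen without 1 library could be read in that library. This left 93 to 107 models chosen. The library left out was set against the mean of the other group, which the choice had used. The share of chosen models whose ratio then stayed below 0.25 was highest at 91 of 93 for TH+ replicate 2 and lowest at 90 of 107 for TH- replicate 2. The median ratio in the library left out was between 0.158 and 0.181. Read pair by pair, 75 of the 96 members stayed below 0.25 in all pairings of a TH+ with a TH- library, and the highest pairwise ratio of any member was 0.400. The pairings used the values that chose the members, so low pairwise ratios follow largely from the choice.

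Levels can be compared between models only per length, for which TPM were used. The members' share of TPM was 8.59% ± 0.286 in TH+ and 34.6% ± 0.390 in TH- (SD over 3 libraries each). By mean TH- TPM the leading member was the 449-base model of rank 5, with 13138, 14126 and 14202 TPM in TH+ and 47410, 48756 and 47479 TPM in TH-. It was followed by the 680-base model of rank 2, with 6774 ± 236 TPM in TH+ and 30919 ± 2598 TPM in TH-. Next came a 446-base model of rank 13, with 8067 ± 416 TPM in TH+ and 24846 ± 337 TPM in TH- (SD over 3 libraries each). Short models therefore led the set per length, and PMZ_0016231-RA, first by read share, was at 2571 ± 147 TPM in TH+ and 16579 ± 1322 TPM in TH-. The division by effective length raises short models relative to their read share, so their lead is in part built into the unit. The 3 leading models had fractional counts, so the level of each depends on how reads were divided.

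Per length the contrast was smaller. The median ratio of the members was 0.223 in TPM, with a range from 0.123 to 0.351, and 63 of the 96 stayed below 0.25. The ratio in TPM exceeded that in CPM by a factor of 1.26 to 1.49, and this factor was larger for shorter members (Spearman's rho with length -0.991 over the 96 members). TPM divide counts by effective length, so this factor is set by the effective lengths and the library sums and is no separate finding. Over models above 2000 bases, length exceeded effective length by 140 ± 4.17 bases in TH+, against 103 ± 2.33 bases in TH- (SD over 3 libraries each). Whether fragment length also bears on the members' ratios in CPM was not tested.

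Taken over all levels, members were shorter than the other TH- abundant models. Their median length was 1824.5 bases, with quartiles of 977 and 2943, against 2803 bases for the 769 others. Models under 1000 bases made up 26.0% of the members and 13.9% of the others. At a TH- level of 1000 CPM or more the difference was small, with a median of 1425 bases over 57 members and 1576 bases over 68 others. At 300 to 1000 CPM members were not shorter, with 2404.5 bases over 18 members and 2398 bases over 168 others. At 100 to 300 CPM the medians were 2367 bases over 21 members and 3031 bases over 533 others. Longer members had lower CPM in TH- (Spearman's rho -0.430 over 96 models).

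Many members had fractional counts. A model whose estimated counts are not whole in some library has reads divided between similar sequences. This held for 55 of the 96 members, or 57.3%, and for 40.6% of the 769 other abundant models. At 1000 CPM or more the shares were 70.2% of members and 67.6% of others, close to each other. At 300 to 1000 CPM they were 55.6% of 18 members and 37.5% of 168 others, and at 100 to 300 CPM the order was turned round, with 23.8% of 21 members and 38.1% of 533 others. These shares were not tested. Fractional members carried most of the set's reads, with 5.30% ± 0.216 of the counts in TH+ and 29.9% ± 0.928 in TH-. The 41 members with whole counts held 0.724% ± 0.0397 in TH+ and 4.64% ± 0.245 in TH- (SD over 3 libraries each).

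Members with whole counts met the same rule. A whole count does not show that a model shares no reads, and read uniqueness was not tested. Their median ratio was 0.154, against 0.173 for fractional members. Their median length was 2153 bases, against 1451 bases for fractional members. The most abundant whole-count member, of rank 20 and 1359 bases, had 780 ± 84.9 CPM in TH+ and 4847 ± 238 CPM in TH- (SD over 3 libraries each). The next, of rank 21 and 1425 bases, had 512, 483 and 547 CPM in TH+, against 5039, 4406 and 4732 CPM in TH-.

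A pair of members, of 729 bases each, was equal in length and in all 6 values. Each copy stood at 2059 ± 101 CPM in TH+ and 8611 ± 82.8 CPM in TH- (SD over 3 libraries each). The level of their sum is measured, and that of either copy alone is not. The length of 942 bases was shared by 7 members, which ran from 223 to 990 CPM in TH+ and from 1856 to 7463 CPM in TH-. Their ratios ran from 0.115 to 0.218.

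Over all levels, members had close neighbours by identifier number more often than the others, a feature looked at after the values were seen. Of the 96 members, 44 had another TH- abundant model within 3 identifier numbers, or 45.8%, against 28.6% of the 769 others. For the very next number the shares were 37.5% of members and 14.6% of others. At 1000 CPM or more, 38 of the 57 members (66.7%) and 34 of the 68 others had such a neighbour within 3 numbers. The order was turned round in both lower classes, with 22.2% of members and 29.2% of others at 300 to 1000 CPM, and 9.52% of members and 25.7% of others at 100 to 300 CPM. Whether close numbers stand for neighbouring genes is not given in the sources used here.

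Linking TH- abundant models whose numbers were at most 3 apart gave 11 blocks with at least 2 members. They held 34 members and 20 other models, and 48 of these 54 models had fractional counts. The 34 members took 3.59% ± 0.157 of the counts in TH+ and 20.2% ± 0.344 in TH- (SD over 3 libraries each), which was 58.5% of the set's TH- counts. A sum over all models of a block does not depend on how reads were split among those models. Whether the similar sequences lie in the same block was not tested, and 22 fractional members lay outside the blocks.

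The block with the highest summed level had 7 models, 4 of them members, including the equal pair of 729 bases and the member of rank 2. Its summed level was 18141, 19787 and 19935 CPM in TH+ and 73041, 72420 and 72542 CPM in TH-, a ratio of 0.265. Within it the members had ratios of 0.152 to 0.239 and the other models 0.281 to 0.472. The block as a whole thus lay just outside the limit of 0.25, although its members lay within.

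The block with most members had 9 consecutive numbers, of which 7 were members of 942 or 831 bases. It summed to 4133, 3964 and 4139 CPM in TH+ and 23198, 24062 and 23746 CPM in TH-, a ratio of 0.172. Its members ranged in ratio from 0.115 to 0.218, and the remaining models had 0.266 and 0.360. A block of 4 consecutive members of 681, 685, 449 and 327 bases summed to 5391 ± 276 CPM in TH+ and 30641 ± 676 CPM in TH- (SD over 3 libraries each). Its ratio was 0.176, which the rule kept below 0.25 since all its models were members. All 4 of its models had fractional counts.

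A block of 2 members, of 2106 and 2273 bases, had the lowest summed ratio, 0.103, at 566 ± 23.5 CPM in TH+ and 5522 ± 257 CPM in TH-. Over all 11 blocks the summed ratio ran from 0.103 to 0.311, and it was below 0.25 in 7. Blocks were kept for holding at least 2 members, so low sums follow in part from the choice. In 3 blocks, this one included, all models were members, which fixed a sum below 0.25. One block of 3 models paired members of 2813 and 4096 bases, with ratios of 0.186 and 0.187, with a model at 3.48. Close identifier numbers therefore did not always go with a like ratio.

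**Figure D4:**
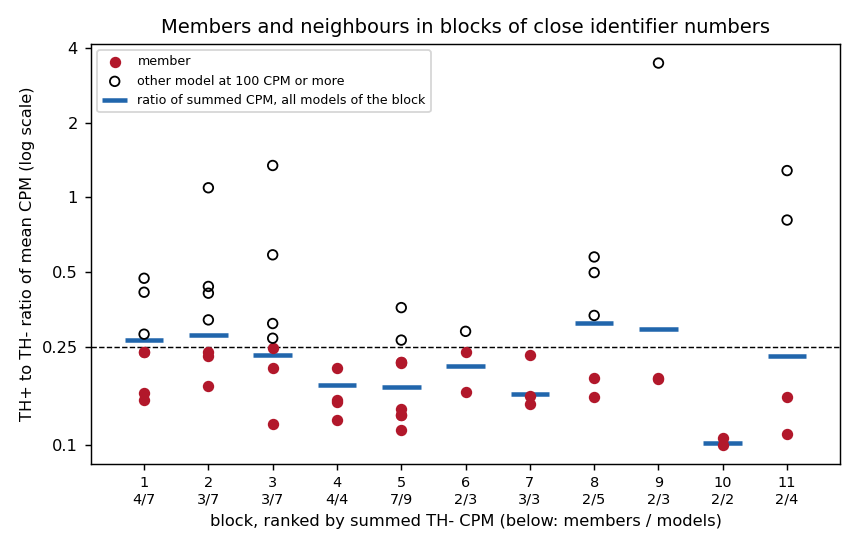
TH+ to TH- ratio of mean CPM (y axis, log scale) of each model in the 11 blocks of close identifier numbers (x axis, ranked by summed TH- CPM), with members filled, other models hollow and the ratio of the block's summed CPM as a bar. Bars lie between 0.103 and 0.311, and 7 of the 11 are under the dashed line at 0.25. Blocks were kept for holding at least 2 members, so low bars follow in part from the choice.

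The spread between libraries of a group was not used by the rule. It was measured as the coefficient of variation (CV) of CPM over 3 libraries with the counting part removed. In TH+ the median CV was 4.93% for members and 3.51% for the other TH- abundant models. In TH- it was 6.50% for members and 11.2% for the others. The order in TH- held at 1000 CPM or more, with 5.45% and 9.93%. It was turned round at 300 to 1000 CPM, with 11% and 8.24%, and at 100 to 300 CPM, with 15.1% and 12.4%. On TMM-scaled CPM members had 10.1%, 9.21% and 7.90% in these classes from high to low, and the others 12.8%, 11.1% and 9.47%.

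Some members varied strongly between TH- libraries. The largest CV in TH- was 44.2%, for the longest member, of 6904 bases and rank 74, which had 76.1, 75.3 and 85.5 CPM in TH+ and 539, 214 and 353 CPM in TH-. A 2987-base member of rank 66 had 94.5, 96.6 and 98.4 CPM in TH+ and 810, 420 and 613 CPM in TH-. In this pair TH- replicate 1 was highest and replicate 2 lowest, while the TH+ libraries hardly differed. The opposite order was seen in a 1488-base member of rank 61, with 173, 158 and 162 CPM in TH+ and 661, 979 and 752 CPM in TH-.

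**Figure D5:**
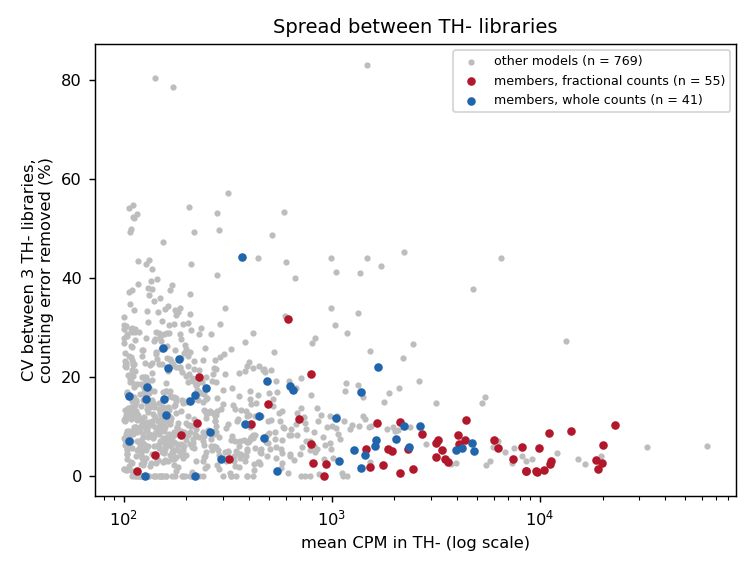
Coefficient of variation between the 3 TH- libraries with the counting part removed (y axis, %) against mean TH- CPM (x axis, log scale) for 55 members with fractional counts in red, 41 with whole counts in blue and 769 other models in grey. Members at 1000 CPM or more have a median of 5.45% and the single highest member lies at 44.2%.

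Members split by which TH- library held most of them. On library totals 49 were highest in TH- replicate 1, 41 in replicate 2 and 6 in replicate 3. These were 51.0%, 42.7% and 6.25% of the members, against 61.1%, 30.6% and 8.32% of the 769 others. At 1000 CPM or more, 61.4% of members and 60.3% of others were highest in replicate 2, close to each other. Of the 41 members with whole counts 33 were highest in replicate 1, and of the 55 with fractional counts 33 were highest in replicate 2. Fractional counts were more frequent at high levels, so this split is not separate from abundance. The log2 difference of replicate 2 over replicate 1 ran from -1.33 to 0.57 and went up with abundance (Spearman's rho 0.562 over 96 members, 0.217 over the 769 others). These directions rest on the scaling. After TMM, 70 members (72.9%) were higher in replicate 2 than in replicate 1, against 45 (46.9%) on library totals and 30 (31.25%) in TPM. Among the 769 others these shares were 57.3%, 33.9% and 28.5%, so they also moved with the scaling.

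TH+ libraries differed little, but members tended to be highest in TH+ replicate 3. This was so for 64 of the 96 members, or 66.7%, and for 35.0% of the 769 others. At 1000 CPM or more in TH- the shares were 77.2% of members and 29.4% of others. They were close at 300 to 1000 CPM, with 38.9% and 33.9%, and were 61.9% and 36.0% at 100 to 300 CPM. The median log2 difference of that library over the mean of the remaining TH+ libraries was 0.10 for members and 0.01 for the others. With TMM scaling 67 members were highest there, and in TPM 63. The members' summed share, given above, was also highest in that library.

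Taking the 96 members out of the totals multiplied the ratios of the 769 other TH- abundant models by a median factor of 0.696. This factor follows from the members' shares in each library. The median ratio of the 769 other TH- abundant models was then 0.707, against 1.02 with the members in the total. Even without the members, counts were held by few models in TH-. It took 373 ± 3.79 models to reach 50% of the counts in TH+ and 52.7 ± 12.7 in TH- (SD over 3 libraries each), against 359 ± 5.29 and 40.7 ± 3.06 with the members.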

How the data were processed

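RNA of sorted TH+ and TH- cells was measured in 3 libraries each. Per the labels' protocols, cells were fixed in paraformaldehyde, crosslinks were reversed and SMART-Seq cDNA was made into libraries. Low input and amplification without described molecular identifiers mean that counts are of reads. The counting part removed from the CV covers counting error of reads only, while the values after ± are SDs over 3 libraries. Per the submitters' processing notes and the file headers, the authors quantified with kallisto, which deposited an estimated count for every model, unscaled for depth. The deposited TPM divide these by effective length and sum to 1000000 in a library. Tool versions, transcript set and genome build are not stated in any label or header read.

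Estimated counts were rounded. CPM used library totals. Whole counts were taken within 1e-06. The fit on all models used edgeR 4.0.16 in R 4.3.3 (filterByExpr, minimum count 10, minimum total 15, TMM, quasi-likelihood test, Benjamini-Hochberg at 0.05). The fit was also run on simulated counts with 200 changed models. It recovered 77 of 100 2-fold and 100 of 100 4-fold changes, and 4.84% of its calls were false. Far more models were called in the measured data, so the simulation does not vouch for the fit there. Alternatives used DESeq2 1.42.0, limma 3.58.1 and other scalings, filters, units and libraries. The set, its rule and the tests were chosen with earlier results of these data known. Identifiers were printed for the members with the highest TH- CPM and the lowest ratio. Other members were given by rank and length: ranks 1 to 10, the 5 lowest ratios and the models at the edges of the rule. Members beyond these were chosen after their values were seen, as were the blocks of close identifiers. The prepared symbol lists could not be applied.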

Additional observations from a re-analysis of the deposited data

How the results depend on the processing

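The 96 members were called lower in TH+ in each of 16 alternative fits, including the replicate block (96 members called) and the fits without 1 library (96 to 96). The rule used this contrast, so these counts say nothing of robustness, and the share of all models called lower in those fits ran from 5.84% to 38.3%. Deviations of libraries with equal replicate numbers had correlations between 0.00045 and 0.0242, against -0.0293 to 0.0201 for unlike numbers. Of the 3 TH+ libraries, 2 correlated best with their own number. With 3 libraries per group these values cannot decide whether libraries were paired. The rule gave 53 members in TPM, 596 on TMM-scaled CPM, which held all 96, and 41 with whole counts only; without each library in turn it gave 93 to 107. The members' share of the TH+ total was 8.59% in TPM and 0.724% for whole-count members, and 5.88% to 6.10% without each library; their TH- share was 4.64% for whole-count members and 34.2% to 34.9% without each library. The median ratio was 0.223 in TPM, 0.0497 after TMM, 0.0497 with DESeq2 size factors, 0.0650 with upper-quartile scaling, 0.154 for whole-count members, 0.165 to 0.173 without each library, and 0.158 to 0.181 where members were chosen without a library and read in it alone. The median CV in TH- was 9.42% after TMM, 6.99% in TPM and 10.1% for whole-count members. The shifts with TMM, DESeq2 and upper-quartile scaling follow from the scaling factors, and those in TPM from effective lengths and library sums. The whole-count values rest on a smaller set. Why the factors differed between the groups, and the cause of the other shifts, was not tested. Depth did not limit detection of the members, which the rule chose for high TH- levels, since the lowest had 82 counts in a library. The level of single models with divided reads is limited instead. Over all models, 16321, 16339 and 16296 had a count in the TH+ libraries, against 12983, 13229 and 12715 in the TH- libraries. The bearing of this difference on the members' shares was not tested.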
